A study of Mus musculus with 5 samples.

Results

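The keratin genes of the mouse were followed here in RNA of cells sorted as dermal group 2 innate lymphoid cells (dILC2s). Members were all genes of the count table whose symbol is Krt followed by a number and at most 1 letter, which gave 51 of 47729 genes. Keratins build the intermediate filaments of epithelia, and each filament pairs an acidic type I with a basic type II keratin. In the epidermis the pair of Krt5 and Krt14 is a hallmark of the basal layer, and Krt1, Krt10 and Krt2 replace it in the layers above as cells differentiate. Krt6a, Krt6b, Krt16 and Krt17 are known from hair follicle sheaths and from wounded or stressed epidermis, Krt7, Krt8, Krt18 and Krt19 from simple epithelia, and further keratins from the inner root sheath and the hair shaft. Members were grouped by these roles into 3 basal, 3 suprabasal, 4 stress and 4 simple keratins and 37 others, of which 8 belong to the inner root sheath and 14 to the hair shaft.

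Cells were taken from the skin of female C57BL/6 mice of 8 to 13 weeks, either wild type (WT, labelled B6, in libraries named B6J) or Rag1-/-, the latter lacking the recombinase that T and B cells need, so that these hosts have no mature T or B cells. The study's flow cytometry gate for dILC2s kept viable CD45+ CD90hi cells without signal for CD2 or CD3. Its methods for RNA sequencing name sorted dermal ILC2s and give no separate gate. The cells received no stimulation after sorting. There were 3 WT libraries (pools 5, 6 and 13), each from cells of 10 mice, and 2 Rag1-/- libraries (pools 2 and 7), each from cells of 9 mice by the study's methods, although the labels give 16 Rag1-/- mice in all. The labels name the cells of the WT libraries innate lymphoid cells of type 2 and those of the Rag1-/- libraries type 3. Every library is a pool, so the spread between libraries is a spread between pools and not between single mice.

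Total counts per library lay between 32939428 and 39477243 in WT and were 8050562 in Rag1-/- pool 2 and 38922750 in Rag1-/- pool 7. A count of 3, taken as the smallest that the depth can show, was 0.373 CPM (counts per 1000000 counts of the library) in Rag1-/- pool 2 and 0.0760 to 0.0911 CPM in the other libraries, which covers counting error only. Rag1 itself, the targeted gene, was not lower in the libraries that carry the Rag1-/- label, where pool 2 held 5 and pool 7 held 48 of its reads, against 4 (pool 5), 0 (pool 6) and 5 (pool 13) in WT (log2 fold change 3.53, SE 1.03, adjusted p = 0.0865, edgeR's quasi-likelihood test). Genotypes are named as labelled, and Rag1-/- stands for the libraries with that label. Rag1-/- pool 2 stood apart by its depth and by its keratin levels, and WT pool 13 by 3 inner root sheath keratins, Krt75 and Krt84.

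Marker genes of other cell types differed between the groups as well. Leukocyte genes summed to 1242, 3018 and 3043 CPM in WT pools 5, 6 and 13, so that pool 5 lay well below the other WT pools. In Rag1-/- libraries they summed to 8697 to 9687 CPM. Of the 32 tested, 21 were called higher in Rag1-/- (against 3.57% of all genes), among them Srgn and Laptm5. The median log2 fold change of the 32 was 1.92. ILC2 genes (4 of 11 called higher, Thy1, Il5, Il13 and Arg1) and ILC3 genes (3 of 6 called higher, Il17f, Il22 and Il23r) also passed in part, and none of these genes was called lower. A list of 24 genes of keratinocytes other than keratins summed to 16325 to 22378 CPM in WT and to 3867 and 10238 CPM in Rag1-/- pools 2 and 7, without overlap. Fibroblast, melanocyte, Langerhans cell and Merkel cell genes had 0 called, among them Col1a1, Pmel, Cd207 and Piezo2 (0 at an unadjusted p under 0.05 with edgeR, 0 called by DESeq2). In bulk RNA, fewer cells of a type and less RNA per cell cannot be told apart, and the part of these lists in the keratin results was not tested.

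Keratin counts took 3.92%, 2.99% and 2.59% of the counts of WT pools 5, 6 and 13, and 0.526% and 1.64% of those of Rag1-/- pools 2 and 7 (95% Wilson intervals of at most 0.00611 percentage points to either side, for counting error only). Both Rag1-/- libraries lay below all WT libraries. The 5 genes Krt2, Krt5, Krt10, Krt14 and Krt15 held 89.8% to 93.0% of these counts in every library. Of the 51 members, 18 had a mean of at least 5 CPM over the 5 libraries, 8 had 1 to 5 CPM and 25 less than 1 CPM, and 2 (Krt34 of the hair shaft and Krt76 of oral epithelium) had no counts at all. The filter on low counts kept 34 members for the test, and 23 members were above 3 counts in all libraries.

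The keratin genes lie in 2 clusters, one for each type. On chromosome 11 of GRCm38, 27 members, all of type I, lie between 99232761 and 100269871, and on chromosome 15 24 members lie between 101349571 and 102032026, which are the type II genes and Krt18, the type I exception beside its partner Krt8. To compare levels between genes, counts were divided by the length of the exons (RPKM, which is CPM per kilobase of exon). That length covers every annotated exon of a gene, with 2114 bases for Krt10 and 4415 for Krt1, so ranks between genes depend on the annotation. In WT, Krt10 had 3761 ± 1446 RPKM (SD, n = 3), Krt2 3148 ± 909, Krt14 3134 ± 305 and Krt5 2454 ± 276, so that the first 3 lay within their spread of each other, and Krt5 was the lowest of these 4 in every WT library. Krt15, a basal keratin also used as a marker of the hair follicle bulge, followed with 891 ± 128 RPKM (SD, n = 3). The next, Krt17 with 266 RPKM, Krt77 with 180, Krt1 with 159, Krt79 with 118 and Krt16 with 115, overlapped in part. In Rag1-/- pool 7 the order of the first 5 was Krt10, Krt14, Krt2, Krt5 and Krt15, and in Rag1-/- pool 2 it was Krt14, Krt5, Krt2, Krt10 and Krt15.

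**Figure D1:**
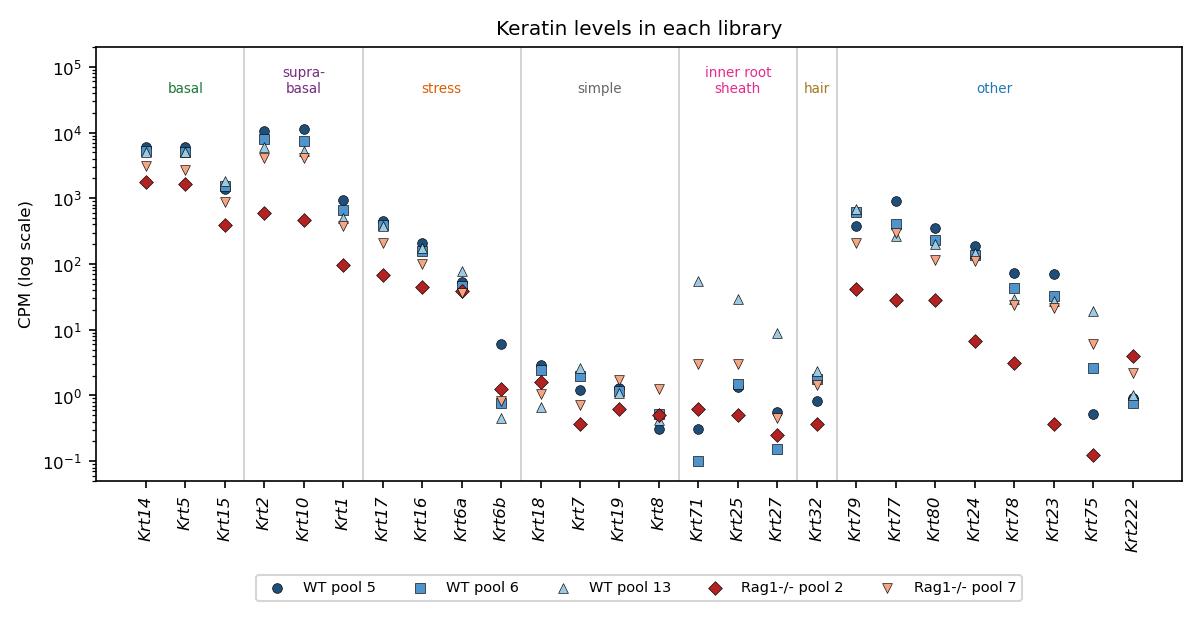
Level of the named keratins in each library, in CPM on a log scale, with 1 symbol per library and members ordered by group. The basal and suprabasal genes reach the highest levels, and Rag1-/- pool 2 (red diamonds) lies lowest for Krt10 with 475 CPM against 5266 to 11278 CPM in WT.

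Many keratin genes are known to have a TATA box, and the letters upstream of the start are shown for some abundant epidermal keratins, for those of the inner root sheath and companion layer that set WT pool 13 apart, and for Krt79 and Krt8 as genes without a match. Krt14 is not shown, since its RefSeq start lies 1518 bases from the start in the count table, and it has no match in this window. The 60 bases before the start given by RefSeq (GRCm38.p6) are written in lower case on the strand of the gene, with TATAA and ATAAAA, which can overlap as TATAAAA, in capitals. Of 51 members, 35 had a promoter entry.
Krt5 (chr15:101712906-101712965, minus strand): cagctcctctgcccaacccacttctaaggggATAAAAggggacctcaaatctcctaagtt
Krt2 (chr15:101818170-101818229, minus strand): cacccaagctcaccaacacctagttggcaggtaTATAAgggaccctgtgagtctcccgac
Krt10 (chr11:99389365-99389424, minus strand): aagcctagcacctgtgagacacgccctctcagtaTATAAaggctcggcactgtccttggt
Krt24 (chr11:99285263-99285322, minus strand): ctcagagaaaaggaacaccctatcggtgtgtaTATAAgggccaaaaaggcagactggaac
Krt71 (chr15:101743098-101743157, minus strand): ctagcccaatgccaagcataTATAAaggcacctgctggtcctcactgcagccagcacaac
Krt25 (chr11:99322952-99323011, minus strand): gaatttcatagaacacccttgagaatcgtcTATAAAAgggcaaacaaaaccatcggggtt
Krt75 (chr15:101573905-101573964, minus strand): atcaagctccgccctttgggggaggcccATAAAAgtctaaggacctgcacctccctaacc
Krt79 (chr15:101940325-101940384, minus strand): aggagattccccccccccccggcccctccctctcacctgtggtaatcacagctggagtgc
Krt8 (chr15:102004343-102004402, minus strand): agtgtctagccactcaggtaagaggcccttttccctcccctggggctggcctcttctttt
Within the 50 bases before the start, TATAA or ATAAAA on the gene's strand was found in 29 of the 36 promoter entries of members (80.6%), against 2092 of all 32851 entries (6.37%). On the other strand the shares were 2.78% and 3.86%. Krt79 and Krt8 had no match in this window, which says only that these letters are not there.

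The comparison of the genotypes asked which keratins differed between libraries of cells sorted as dILC2s from Rag1-/- and WT mice. Keratins summed to 25851 to 39242 CPM in WT, where leukocyte genes summed to 1242 to 3043 CPM. In Rag1-/- pools 2 and 7 keratins summed to 5260 and 16405 CPM, and leukocyte genes to 9687 and 8697 CPM. Which cells the keratin RNA came from was not tested. None of the 34 tested keratins was called by edgeR's quasi-likelihood test, where a call needs an adjusted p below 0.05 and a log2 fold change beyond 1 in either direction, against 5.73% of all 19011 genes tested, 2.16% lower and 3.57% higher. At an unadjusted p under 0.05 there were 13 keratins, 12 of them lower in Rag1-/-, against 26.4% and 12.3% of all genes. DESeq2, with an adjusted p for 31 keratins, called 9 lower (Krt1, Krt2, Krt5, Krt14, Krt15, Krt16, Krt17, Krt79 and Krt80) and 1 higher (Krt222), against 7.16% and 6.85% of all genes. The median log2 fold change of the 34 keratins was -1.42, against 0.02 for all genes, and 30 of them had a negative value, against 48.6% of all genes. Levels did not overlap between groups, with WT higher, for 20 keratins, against 24.0% of all genes, and with Rag1-/- higher for 1 keratin, against 21.9%.

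The number of keratins called changed with single libraries and with the settings. Without Rag1-/- pool 7, 15 keratins were called lower (7.98% of all genes) and 1 higher, with a median of -2.37. Without Rag1-/- pool 2, or without any one WT pool, edgeR called 0 keratins and 0 of all genes, so that calls of other genes named here were also lost, while 11 to 13 keratins had an unadjusted p under 0.05. The median without Rag1-/- pool 2 was -0.87. With 1 Rag1-/- library left, that library is assumed to vary like WT. Called lower were 15 keratins without the filter (4.98% of all genes), 1 (Krt5) when at least 10 counts in every library were required (4.54%), and 30 when libraries were scaled on leukocyte genes (67.1%).

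The basal keratins had negative fold changes of similar size. Krt5, the type II partner of the basal layer, had 6091, 5067 and 5019 CPM in WT pools 5, 6 and 13 and 1632 and 2731 CPM in Rag1-/- pools 2 and 7. The groups did not overlap, and the log2 fold change was -1.26 (SE 0.33, adjusted p = 0.0666, edgeR's quasi-likelihood test). Krt14, its type I partner, had 6118, 5304 and 5108 CPM in WT and 1792 and 3049 CPM in Rag1-/-, again without overlap (-1.15, SE 0.33, adjusted p = 0.084, edgeR). The ratio of Krt14 to Krt5 counts was 1.00, 1.05 and 1.02 in WT and 1.10 and 1.12 in Rag1-/-, and these did not overlap. Krt15 had 1386, 1513 and 1826 CPM in WT and 396 and 863 CPM in Rag1-/-, so that all WT pools lay above both Rag1-/- pools (-1.28, SE 0.38, adjusted p = 0.091, edgeR). DESeq2 gave these 3 genes adjusted p-values of 0.000865, 0.003 and 0.00656. Part of the sequence of Krt5 (12.2%) and Krt14 (13.9%) is shared in stretches of 50 bases with other genes.

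The suprabasal keratins were lower by more in Rag1-/- pool 2 and by about the same factor as the basal ones in Rag1-/- pool 7. Krt10, the type I keratin of differentiating layers, had 11278, 7310 and 5266 CPM in WT pools 5, 6 and 13 and 475 and 4140 CPM in Rag1-/- pools 2 and 7, which gave a log2 fold change of -1.73 (SE 0.85, adjusted p = 0.248, edgeR's quasi-likelihood test). Krt2, a keratin of the upper layers, had 10729, 7941 and 6005 CPM in WT and 598 and 4095 CPM in Rag1-/-, with -1.75 (SE 0.76, adjusted p = 0.198, edgeR). Krt1, the type II partner of Krt10, had 937, 672 and 500 CPM in WT and 95.6 and 377 CPM in Rag1-/-, with -1.52 (SE 0.59, adjusted p = 0.157, edgeR). None of the 3 overlapped between groups. Pool 7 lay above pool 2 of Rag1-/- by 3.94-fold for Krt1, 6.84-fold for Krt2 and 8.72-fold for Krt10, against 1.67-fold for Krt5 and 1.70-fold for Krt14. Without Rag1-/- pool 2 the log2 fold changes were -0.87 for Krt10, -0.93 for Krt2 and -0.83 for Krt1. Without it those of the basal genes were -0.91 for Krt5, -0.78 for Krt14 and -0.80 for Krt15. DESeq2 called Krt1 and Krt2 and gave Krt10 an adjusted p of 0.187.

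The balance of basal and suprabasal keratins set Rag1-/- pool 2 apart from all other libraries. Basal genes held 34.6%, 39.7% and 46.2% of keratin counts in WT pools 5, 6 and 13, 72.6% in Rag1-/- pool 2 and 40.5% in Rag1-/- pool 7 (95% Wilson intervals of at most 0.425 percentage points to either side). Suprabasal genes held 58.5%, 53.2% and 45.5% in WT and 22.2% and 52.5% in Rag1-/- pools 2 and 7. The ratio of suprabasal to basal counts was 1.69, 1.34 and 0.985 in WT, 0.306 in Rag1-/- pool 2 and 1.30 in Rag1-/- pool 7, so that pool 7 lay within the range of WT and the groups overlapped. Against the WT mean, summed levels in pool 2 were 30.6% for basal, 6.92% for suprabasal and 23.4% for stress keratins, and in pool 7 they were 53.2%, 51.0% and 53.3%. The ratio of type I to type II keratins, summed per length, was 1.34, 1.33 and 1.37 in WT and 1.50 and 1.45 in Rag1-/-.

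**Figure D2:**
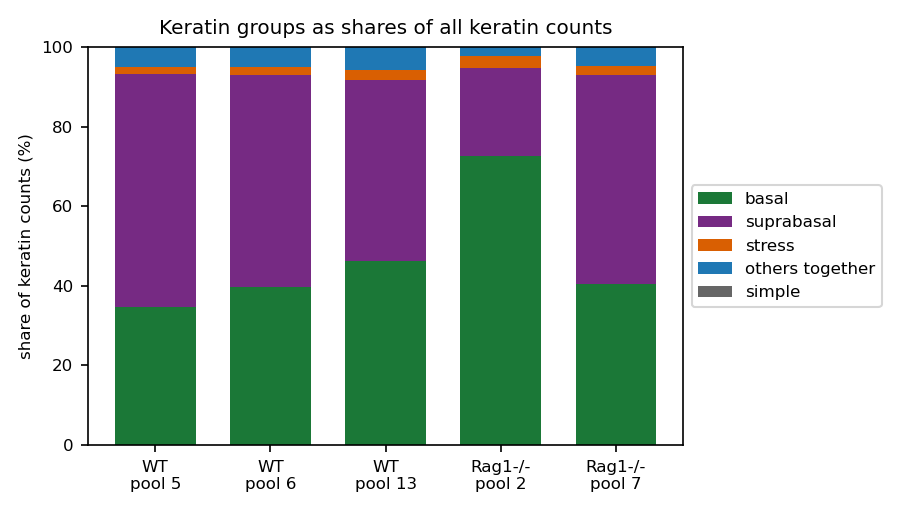
Share of all keratin counts, in percent, that each keratin group held in each library. Basal genes make up 72.6% in Rag1-/- pool 2 and 34.6% to 46.2% in the other libraries, and the simple keratins (at most 0.059%) are too few to be seen.

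The stress keratins had lower values in Rag1-/- as well. Krt17 had 456, 397 and 383 CPM in WT pools 5, 6 and 13 and 69.1 and 209 CPM in Rag1-/- pools 2 and 7, without overlap (log2 fold change -1.51, SE 0.46, adjusted p = 0.0948, edgeR's quasi-likelihood test). Krt16, the type I keratin paired with Krt6 in activated epidermis, had 207, 158 and 173 CPM in WT and 44.1 and 102 CPM in Rag1-/-, without overlap (-1.25, SE 0.37, adjusted p = 0.091, edgeR). Krt6a was the least different, with 53.5, 46.5 and 78.4 CPM in WT and 38.6 and 36.5 CPM in Rag1-/- (-0.63, SE 0.26, adjusted p = 0.174, edgeR). Krt6b had 0.455 to 1.24 CPM in 4 libraries and reached 6.01 CPM in WT pool 5, so its value of -1.23 (SE 1.13, adjusted p = 0.546, edgeR) turned to 0.73 without that pool. The levels of Krt6a and Krt6b are uncertain, since 57.2% and 50.1% of their stretches of 50 bases occur in other genes, as do 37.6% of those of Krt16. Without Rag1-/- pool 2 the log2 fold change was -0.91 for Krt17 and -0.75 for Krt16. The ratio of stress to basal counts was 0.0507 to 0.0531 in WT and 0.0401 and 0.0524 in Rag1-/-, so the groups overlapped.

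The simple keratins stayed below 3 CPM in every library. Krt18, the type I partner of Krt8, had 2.91, 2.48 and 0.668 CPM in WT pools 5, 6 and 13 and 1.61 and 1.05 CPM in Rag1-/- pools 2 and 7, and Krt19 had 1.31, 1.19 and 1.09 CPM against 0.621 and 1.72 CPM, both with overlap. Krt7 had 1.21, 1.95 and 2.64 CPM in WT and 0.373 and 0.719 CPM in Rag1-/-, where the level in pool 2 is that of 3 counts (log2 fold change -1.67, SE 0.59, adjusted p = 0.133, edgeR's quasi-likelihood test). Krt8 had 0.309, 0.532 and 0.425 CPM in WT and 0.497 and 1.26 CPM in Rag1-/-, with a value of 1.18 (SE 0.64, adjusted p = 0.294, edgeR) that turned to -0.86 when libraries were scaled on leukocyte genes. In Krt8 29.7% of the stretches of 50 bases occur elsewhere, among them in a pseudogene. Krt20, a keratin of Merkel cells and gut that also stands on the Merkel cell list, stayed between 0.248 and 1.18 CPM, and Atoh1, which defines Merkel cells, was at or near 0.

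Of the 8 inner root sheath keratins, Krt71, Krt25 and Krt27 were far higher in WT pool 13 than in any other library, and Krt75 of the companion layer was highest there. Krt71, a type II keratin of the inner root sheath, had 54.6 CPM in WT pool 13 and 0.309 and 0.101 CPM in WT pools 5 and 6, against 0.621 and 3.01 CPM in Rag1-/- pools 2 and 7. Krt25, a type I keratin of the same sheath, had 29.7 CPM in WT pool 13 and 1.34 and 1.49 CPM in the other WT pools, against 0.497 and 3.03 CPM in Rag1-/-. Krt27 followed with 9.02 CPM in that pool and 0.152 to 0.567 CPM in the other 4 libraries. Krt75, of the companion layer beside the sheath, had 0.516, 2.58 and 19.6 CPM in WT pools 5, 6 and 13 and 0.124 and 6.06 CPM in Rag1-/-. Trichohyalin (Tchh), which binds keratin filaments in the sheath, was also highest in WT pool 13, with 39.4 CPM against 13.3 and 13.9 CPM in the other WT pools and 4.6 and 5.01 CPM in Rag1-/-. Fold changes with all pools were -3.11 for Krt71, -2.40 for Krt25, -2.98 for Krt27 and -1.10 for Krt75 on the log2 scale, and without WT pool 13 all 4 were positive, at 3.24, 0.45, 0.13 and 1.12. The other members of the sheath did not set this pool apart from all other libraries. Krt28 was also highest in WT pool 13, with 1.94 CPM against 0.490 and 0.355 CPM in WT pools 5 and 6. However, Rag1-/- pool 7 was close to it with 1.67 CPM, and Rag1-/- pool 2 had 0.497 CPM. Krt73 was highest in WT pool 5 with 2.01 CPM against 1.21 CPM in WT pool 13, and Krt26, Krt72 and Krt74 stayed below 0.1 CPM in every library.

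Hair shaft keratins were near the limit of detection. Among 14 members only Krt32 and Krt84 passed the filter, and Krt32, with the highest mean over all libraries, had 0.825, 1.80 and 2.34 CPM in WT and 0.373 and 1.44 CPM in Rag1-/-. Krt84 had 2.91 CPM in WT pool 13, more than Krt32 there, against 0.516 and 0.253 CPM in WT pools 5 and 6. In Rag1-/- pools 2 and 7 Krt84 had 0.248 and 0.334 CPM. Krt35 was higher than Krt32 in Rag1-/- pool 7 (1.52 CPM). Of 57 keratin-associated proteins, which crosslink the keratins of the hair shaft, 33 had no counts and 2 were tested, Krtap3-2 and Krtap3-3, with 0 called (0 at an unadjusted p under 0.05 with edgeR, 0 by DESeq2). Of the 10 regulators of hair differentiation, Sox9, a factor of the outer root sheath and bulge, was called lower, against 2.16% of all genes, with 104, 120 and 122 CPM in WT and 38.3 and 57.2 CPM in Rag1-/- (log2 fold change -1.23, SE 0.25, adjusted p = 0.0376, edgeR's quasi-likelihood test). Of the 10, 9 had negative values, 8 had an unadjusted p under 0.05 and DESeq2 called 4 lower, and Lef1, a factor of the hair matrix, had a value of 0.68 (adjusted p = 0.186, edgeR).

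Of the remaining keratins, those of differentiated epidermis and of the upper follicle were the most abundant. Krt79, a keratin of the follicle opening and sebaceous duct, had 373, 628 and 682 CPM in WT pools 5, 6 and 13 and 41.4 and 206 CPM in Rag1-/- pools 2 and 7, without overlap (log2 fold change -2.12, SE 0.67, adjusted p = 0.104, edgeR's quasi-likelihood test, and -1.37 without Rag1-/- pool 2). Of 6 genes of sebaceous glands, edgeR called 0 (4 at an unadjusted p under 0.05, 2 called lower by DESeq2). Of these, 5 had negative values and Mc5r a value of 0.34, with a median of -1.64, and their sum was 3621 to 6691 CPM in WT and 713 and 2166 CPM in Rag1-/-. Krt80, a type II keratin of differentiating epithelia, had 347, 230 and 205 CPM in WT and 28.1 and 114 CPM in Rag1-/-, also without overlap (-1.81, SE 0.58, adjusted p = 0.109, edgeR, and -1.12 without Rag1-/- pool 2). Krt77 had 909, 408 and 270 CPM in WT and 27.9 and 295 CPM in Rag1-/-, where pool 7 lay above WT pool 13. Krt24 had 191, 138 and 147 CPM in WT and 6.83 and 113 CPM in Rag1-/-, so that both pools lay below WT. Krt78 had 72.2, 43.7 and 29.3 CPM in WT and 3.11 and 23.9 CPM in Rag1-/-, and Krt23 had 70.5, 32.2 and 27.0 CPM against 0.373 and 21.6 CPM, so that pool 7 lay close to the lowest WT pool for both. Without Rag1-/- pool 2 the log2 fold changes were -0.77 for Krt77, -0.42 for Krt24, -0.95 for Krt78 and -0.93 for Krt23, against -1.65, -1.33, -1.73 and -1.84 with it. For Krt24, Rag1-/- pool 7 was 16.5-fold above pool 2, the widest distance between the Rag1-/- pools among the keratins that exceeded 3 counts in every library. Krt222 was the only tested keratin whose Rag1-/- pools both lay above WT, with 0.902, 0.76 and 1.00 CPM in WT and 3.97 and 2.18 CPM in Rag1-/- (1.79, SE 0.46, adjusted p = 0.0638, edgeR), and its sign turned when libraries were scaled on leukocyte genes.

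**Figure D3:**
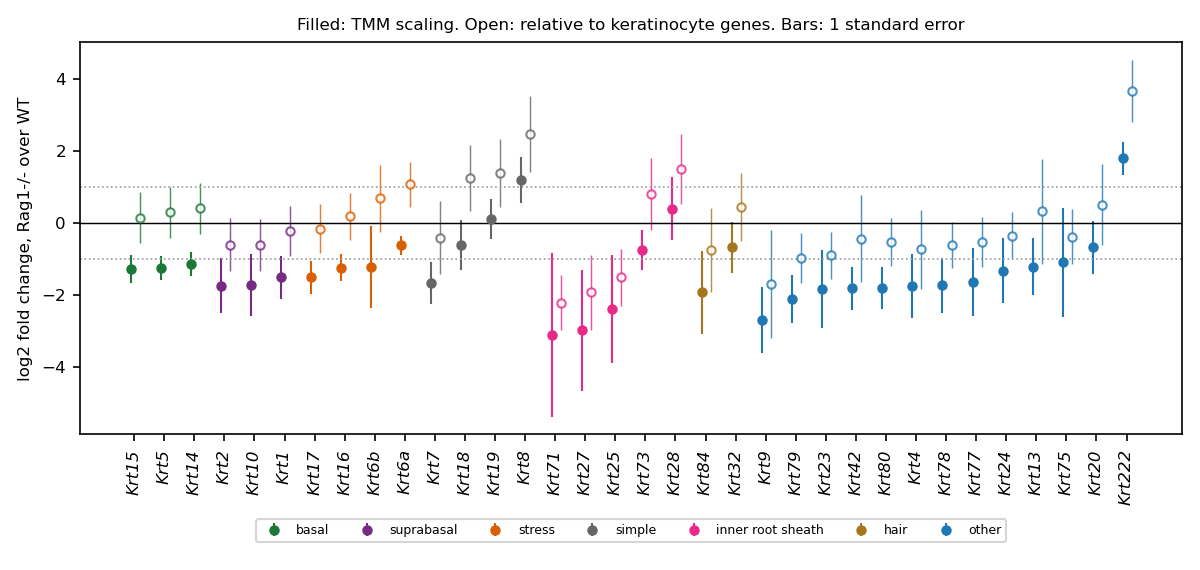
Log2 fold change (Rag1-/- over WT) of the 34 tested keratins with bars of 1 standard error, filled with TMM scaling and open when libraries were scaled on keratinocyte genes. No filled point passed the adjusted threshold, and 30 lie below 0, with signs that turn for Krt71, Krt25, Krt27 and Krt75 without WT pool 13.

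To ask whether keratins differed by more than other genes of the same cell type, libraries were scaled on the 24 keratinocyte genes that are not keratins. This scaling moved the median of all genes to a log2 fold change of 1.71. The median of the keratins was -0.29, with 19 negative and 15 positive values, against 8.36% of all genes with a negative value. Called were Krt71 lower (-2.22, SE 0.77, adjusted p = 0.0119) and Krt8 (2.46, SE 1.05, adjusted p = 0.0385) and Krt222 higher (3.65, SE 0.86, adjusted p = 0.000322, all by edgeR's quasi-likelihood test), that is 3 of 34, against 54.8% of all genes called, 0.331% lower and 54.5% higher. The Krt71 value turned to 4.57 without WT pool 13, where Krt71 was called higher, so its sign rests on that pool. Its call as lower was also lost without WT pool 5, without WT pool 6 and when libraries were scaled on genes that anchor the filaments. The Krt8 call was lost without any 1 of the WT pools or without Rag1-/- pool 7 (adjusted p of 0.0687 to 0.179, edgeR), and the Krt222 call without WT pool 6 (adjusted p = 0.0601, edgeR). On this scale Krt5, Krt14 and Krt15 had values of 0.29, 0.40 and 0.14 and Krt10, Krt2 and Krt1 of -0.62, -0.61 and -0.23, and none of these 6 was called. Without Rag1-/- pool 7, which left 1 Rag1-/- library, the median of the keratins on this scale was -0.13, against 2.26 for all genes. That median covers members that differed by unlike amounts. By CPM, the suprabasal sum of Rag1-/- pool 2 was 6.92% of the WT mean and the basal sum 30.6%. Without Rag1-/- pool 2, which also left 1, the keratin median was -0.0021, against 0.76 for all genes.

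**Figure D4:**
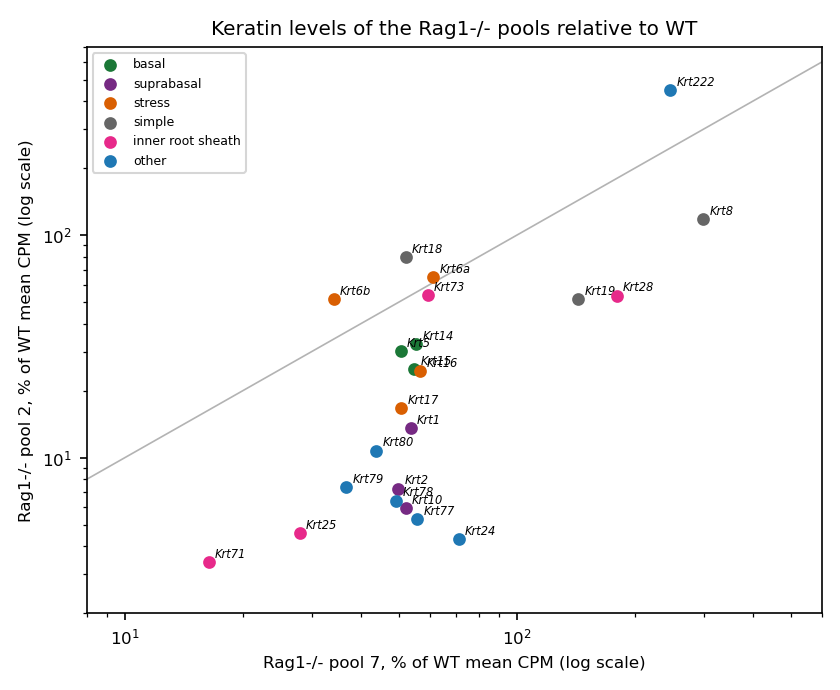
Level of each keratin above 3 counts in all libraries, as a percentage of its WT mean CPM, in Rag1-/- pool 7 (x axis) and Rag1-/- pool 2 (y axis), both on log scales, with the line of equal values. Basal keratins lie near 50% and 30%, and suprabasal keratins near 50% but at 13.6% or less in pool 2.

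Of the genes that work with keratin filaments, some were called lower. Dsp, which ties the filaments to desmosomes, had 4727, 3824 and 3201 CPM in WT pools 5, 6 and 13 and 641 and 1186 CPM in Rag1-/- pools 2 and 7, without overlap. Of 15 tested genes whose products anchor, bundle or bind the filaments, 3 were called lower (against 2.16% of all genes). These were Dsp (log2 fold change -2.06, SE 0.38, adjusted p = 0.0335), Ppl (periplakin, -1.99, SE 0.39, adjusted p = 0.0368) and Evpl (envoplakin, -1.78, SE 0.39, adjusted p = 0.0444, all by edgeR's quasi-likelihood test). Of the 15, 13 had negative values, and the others were Tchp at 0.70 (adjusted p = 0.263, edgeR) and Plec, a linker of filaments in many cell types, at 0.69 (adjusted p = 0.12, edgeR). Jup, or plakoglobin, had a value of -1.47 (adjusted p = 0.084, edgeR). Of the 24 keratinocyte genes, 6 were called lower (against 2.16% of all genes). Among them were Trp63, the basal cell factor, at -1.83, Col17a1 at -1.55 and Dsc3 at -1.84. Perp at -1.33 (adjusted p = 0.15, edgeR) and Dmkn at -1.66 (adjusted p = 0.25, edgeR) were not called. All 24 had negative values with a median of -1.43. The median of the keratins, -1.42, was close to it.

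**Figure D5:**
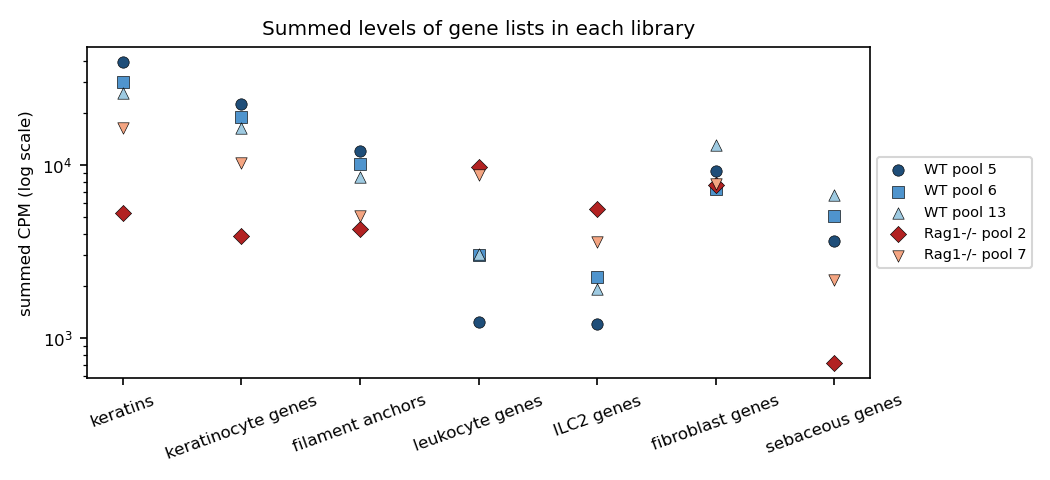
Summed CPM (log scale) of keratins and of other gene lists in each library. Keratins, keratinocyte genes and filament anchors are lower in both Rag1-/- pools than in all WT pools, leukocyte genes are higher, at 8697 and 9687 CPM against at most 3043 CPM, and fibroblast genes overlap.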

How the data were processed

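Libraries of poly(A) RNA were prepared with TruSeq and sequenced as single reads of 50 bases. Per the labels, the authors used bcl2fastq 2.17.1.14, FastQC 0.11.5, STAR 2.5 with GRCm38 and featureCounts 1.5.0-p1. The labels name Ensembl release 103 of the annotation and the paper another release. The authors deposited raw counts per gene, without normalization, which were used for all values. The authors also deposited a normalized table (signal: counts scaled by 1 factor per library), used for 1 alternative. Strand was not recorded by this kit. CPM were computed on the total of each library and RPKM with exon lengths of the GENCODE M21 annotation. Genotypes were compared over all genes in R 4.3.3 by the quasi-likelihood test of edgeR 4.0.16, after filterByExpr and TMM scaling, and p-values were adjusted by Benjamini and Hochberg. Calls needed an adjusted p below 0.05 and a log2 fold change beyond 1 in either direction. With 3 against 2 libraries an exact test has 10 splits and a smallest two-sided p of 0.2.

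Tests were checked on simulated counts. Alternatives were DESeq2 1.42.0, limma 3.58.1 on the deposited signal, other scalings and filters, thinning, and each library left out. Named were all basal, suprabasal, stress and simple keratins, other keratins called or with a mean of at least 5 CPM, the highest remaining member of each subgroup, and the 3 highest genes of each other list. Tchh, Evpl, Ppl, Krt20 and some called genes were named after their values were seen. The members and lists were chosen with earlier results of these data known. Intervals cover counting error only.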

Additional observations from a re-analysis of the deposited data

How the results depend on the processing

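Keratin results changed with which of the 2 Rag1-/- libraries was used. Thinning all libraries to the depth of Rag1-/- pool 2 left 25 keratins tested, 0 of them called by edgeR (11 at an unadjusted p under 0.05), with a median of -1.35, and 1315 genes called. The number of keratins called lower (none with all libraries) was 9 with DESeq2, 30 with libraries scaled on leukocyte genes (where the median of all genes moved to -2.16), 15 without a filter and 1 with at least 10 counts in every library. Called higher were 1 keratin with DESeq2 (6.85% of all genes), 2 without a filter (1157 of all 29909 genes) and 1 with at least 10 counts in every library (856 of all 14121 genes). Genes called were 2459 with DESeq2, 12767 with leukocyte scaling and 2645 without a filter, against 1090. Leaving out 1 library gave 0 to 15 keratins called lower, 0 to 1 called higher and 0 to 2409 genes called. No paired analysis was possible because the groups share no replicate numbers.

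Relative to keratinocyte genes, scaling on the filament anchors instead left 0 keratins called lower, and leaving out 1 library gave 0 to 7 lower, 0 to 3 higher and 943 to 14435 genes. Of the genes called with 1 WT pool left out, 99.4% to 100% were higher in Rag1-/-. Keratins called lower thus stood against few genes called lower, and those called higher against many. The 7 lower came from the fit without Rag1-/- pool 7, which left 1 Rag1-/- library. The keratin median there was -0.13, against 2.26 for all genes. Log2 ratios of summed CPM (Rag1-/- over WT) without 1 library ranged from -1.71 to -0.91 (basal), -3.85 to -0.97 (suprabasal), -2.09 to -0.91 (stress), -0.84 to -0.23 (simple), -3.83 to -1.05 (other) and -2.59 to -0.95 (all keratins).

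Signs turned for Krt8 (-0.86), Krt19 (-2.13) and Krt222 (-0.39) with leukocyte scaling and for Krt19 (-0.22) and Krt71 (0.017) with limma. Leaving out 1 library turned the sign, over the ranges given, of Krt19 (-1.01 to 0.59), Krt6b (-1.72 to 0.73), Krt25 (-4.48 to 0.45), Krt71 (-4.91 to 3.24), Krt75 (-5.92 to 1.12) and Krt27 (-3.72 to 0.13). Relative to keratinocyte genes, signs turned with the anchor scaling for Krt5 (-0.22), Krt14 (-0.099), Krt15 (-0.29) and Krt16 (-0.22), and with 1 library left out for Krt5 (-0.082 to 0.58), Krt15 (-0.039 to 0.40), Krt7 (-0.73 to 0.027), Krt6b (-0.49 to 2.42), Krt1 (-0.54 to 0.032), Krt10 (-1.72 to 0.00060), Krt25 (-2.33 to 1.68), Krt71 (-2.82 to 4.57), Krt24 (-2.23 to 0.41), Krt75 (-3.80 to 2.08), Krt77 (-1.86 to 0.14) and Krt27 (-2.48 to 1.61). The causes were not tested.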
